A study of Mus musculus with 10 samples.

Results

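The cyclins, their kinases and the regulators of mitosis were examined as a module of 42 named genes in mouse embryonic tissue that lacked fibulin-1. The members were chosen by name: a gene belonged to the module if it stood on the list, and it was read on its brightest probe set by the mean over all 10 arrays. A probe set is the group of short probes that reads 1 transcript. Of the 42 genes, 41 had probe sets carrying their symbol alone, out of 12393 such genes on the array, and these 41 genes held 73 of the 22626 probe sets. The exception was Ccnb1, which carries no value here. Of the 41, 39 were over the expression filter, a log2 signal over 4 on at least 5 of the 10 arrays. Cdk6 and E2f3, with means of 2.28 and 2.73 in null tissue and 2.29 and 2.53 in wildtype tissue, were under it and were not tested.

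The Fbln1-null group was 5 mouse embryos homozygous for a gene trap in Fbln1, the gene of the secreted matrix protein fibulin-1, and the control group was 5 wildtype embryos. All were E10.5 embryos from matings between heterozygous carriers of the trap, an insertion present in all cells and not limited to a tissue. Tissue with the hindbrain and pharyngeal arches 1 to 4 was dissected from each, and its RNA was read on Affymetrix arrays. The series addressed the effect of fibulin-1 on signalling by the growth factor FGF8.

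Cells enter the division cycle when D-type cyclins with Cdk4 or Cdk6 phosphorylate the retinoblastoma proteins, which frees E2F factors to switch on cyclin E and the genes of DNA synthesis. Cyclin A and cyclin B with Cdk1 then drive mitosis once CDC25 phosphatases remove the inhibitory phosphates that Wee1 puts on the kinase. The spindle checkpoint holds the anaphase promoting complex until every chromosome is attached. At midgestation the neural progenitors of the hindbrain and the mesenchyme of the arches divide rapidly, while newly born neurons leave the cycle.

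The arrays could be compared and the labelled genotype was borne out by the targeted gene. The median log2 signal of an array was 3.20 to 3.29, any pair of arrays correlated at 0.985 to 0.996 over the probe sets, and 0 pairs held identical values. Fbln1 read 2.52, 2.60, 2.62, 2.72 and 2.85 in null tissue, against 4.93, 5.11, 3.83, 4.47 and 4.40 in wildtype tissue. The 2 groups did not overlap (difference -1.88; p = 0.00794 by a two-sided exact permutation test, its lowest possible value in this design). Sox2 and Zic1 of the neural tube and Twist1 and Prrx1 of the arch mesenchyme were over the filter, while Hoxb2, Egr2, Dlx5, Sox10 and Alx4 were not. Of 6 heart markers, Actc1, at 6.46 in null and 6.58 in wildtype tissue, was over the filter, and Myl7, Tnnt2, Myh6, Myh7 and Nkx2-5 were under it. Litters are not named in the labels, every p-value rests on the spread over these 10 embryos alone, and precision is limited by the number of arrays.

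No member gene passed the test. By their brightest probe sets, the 6 genes with the smallest p-values act at the G1 to S step and at mitotic entry. The lists of G1 and S phase, E2F and mitotic entry genes held 8, 4 and 9 of the 39 tested. These lists were chosen with earlier results of these data known, and whether the 6 genes gather in them was not tested. A further probe set of Bub3, a spindle checkpoint gene, had a smaller p than any of the 6. The phosphatase Cdc25b, the kinase subunit Cks1b, the transcription factor E2f1 and the cyclins Ccne1 and Ccnd3 had lower means in null tissue, and the kinase inhibitor Cdkn1b had a higher one. Of the 39 genes tested, 0 passed an adjusted p of 0.05, where 0.0338% of all genes did (limma, Benjamini-Hochberg adjustment over 9801 probe sets). At an unadjusted limma p of 0.05 stood 5 lower and 1 higher members, or 12.8% and 2.56% of those tested, against 8.98% and 3.84% of all genes. In 3 members (7.69%) every null array lay below every wildtype array, a pattern seen in 2.03% of all genes, and in 0 members every null array lay above, against 0.846% of all genes. The means were lower in null tissue for 25 members and higher for 14, or 64.1% lower against 56.9% of all genes. The median log2 fold change, null over wildtype, was -0.06 over the members and -0.04 over all genes tested by their brightest probe set.

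**Figure D1:**
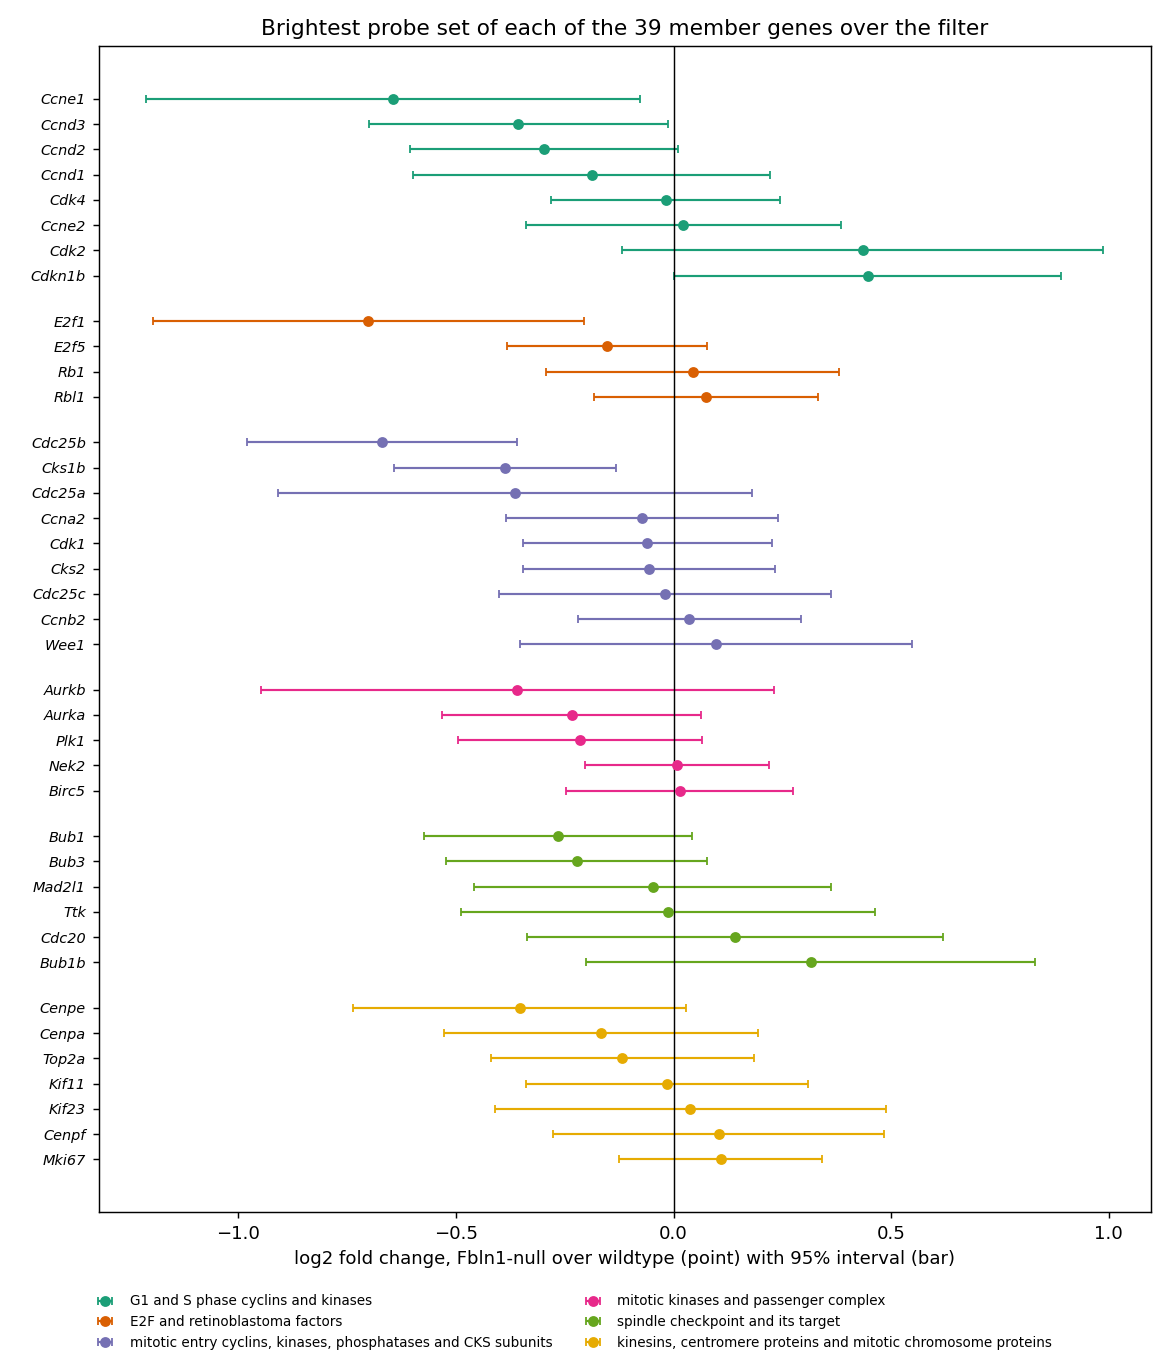
Log2 fold change of Fbln1-null over wildtype tissue (x axis) for the brightest probe set of each of the 39 member genes over the filter, in 6 role groups, with points for the fitted value and bars for the 95% interval (n = 5 arrays each). The intervals of Ccne1, Ccnd3, E2f1, Cdc25b and Cks1b lie below 0 and that of Cdkn1b lies just above 0, while the other intervals cross 0.

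Cdc25b, the phosphatase that first activates the cyclin B kinase at the start of mitosis, had the smallest p among the brightest probe sets. It read 7.58, 7.52, 7.08, 7.07 and 7.18 in null tissue, against 8.06, 7.83, 7.91, 8.19 and 7.79 in wildtype tissue. The highest null array lay below the lowest wildtype array. The mean log2 signal was 7.29 ± 0.25 in null tissue and 7.96 ± 0.16 in wildtype tissue (SD, n = 5 each), a log2 fold change of -0.67 (SE 0.14), or 1.59-fold lower (limma adjusted p = 0.0991). It was the 1 member gene under an adjusted p of 0.1, a level that 0.491% of all genes reached. Quantile scaling of the arrays gave Cdc25b an adjusted limma p of 0.122. In bulk tissue, fewer cells that express a gene and less RNA per cell cannot be told apart.

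The other CDC25 phosphatases gave no call. Cdc25a, which acts on the G1 to S kinases, had a mean of 5.88 ± 0.46 in null and 6.24 ± 0.46 in wildtype tissue, a log2 fold change of -0.36 with a 95% interval of -0.91 to 0.18. Cdc25c, which acts late on Cdk1, had -0.02 (interval -0.40 to 0.36). Whether these differ from Cdc25b was not tested. Wee1, the kinase that opposes them, had 0.10 (interval -0.35 to 0.55), and its dimmer probe set had -0.22.

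Cks1b, a small subunit that docks cyclin-dependent kinases to their substrates and helps mark the inhibitor p27 for destruction, was lower on both of its probe sets. The brighter read 11.36, 11.46, 11.07, 11.30 and 11.21 in null tissue, against 11.58, 11.85, 11.72, 11.59 and 11.59 in wildtype tissue. Its log2 fold change was -0.39 (SE 0.12, limma adjusted p = 0.240). The dimmer read 9.07, 9.24, 9.01, 9.03 and 9.19 in null tissue, against 9.55, 9.65, 9.97, 9.67 and 9.61 in wildtype tissue, with a log2 difference of -0.58 ± 0.12 (SE; adjusted p = 0.0787 by limma). Both probe sets parted the genotypes without overlap. The paralog Cks2 had -0.06 (interval -0.35 to 0.23) and 0.14 on its dimmer probe set.

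The cyclins and the kinase of mitosis itself had fitted differences near 0. Ccna2, the cyclin of S phase and G2, had 10.47 ± 0.27 in null and 10.55 ± 0.14 in wildtype tissue, a log2 fold change of -0.07 (interval -0.39 to 0.24). Ccnb2, a B-type cyclin, had 7.72 ± 0.09 and 7.69 ± 0.17, a log2 fold change of 0.04 (interval -0.22 to 0.29). Cdk1, the mitotic kinase, had 9.19 ± 0.24 and 9.25 ± 0.10, a log2 fold change of -0.06 (interval -0.35 to 0.23). Differences beyond about these bounds are outside the 95% intervals, and differences within them are not excluded with 5 arrays a group.

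The start regions of these genes are shown because both kinds of member, those with genotypes apart and those with fitted differences near 0, belong to families known for shared promoter elements. Promoter windows of RefSeq (GRCm38.p6, from 250 bases before to 50 after a transcription start) were at hand for 33 of the 42 members, in 36 windows. They were searched on both strands for the E2F site in 4 spellings (TTTCCCGC, TTTGGCGC, TTTCGCGC and TTTGCCGC), for the cell cycle homology region or CHR (TTTGAA), bound by the MuvB complexes of late cell cycle genes, and for the CCAAT box (CCAAT), bound by NF-Y. No spelling holds another whole, but matches may share bases. The 200 bases before the start are printed 5′ to 3′ on the strand of the gene, with matches in capitals, first for Cdc25b and Cks1b, whose genotypes did not overlap, and then for 3 mitotic members whose genotypes overlapped.
Cdc25b, chr2:131186748-131186947, plus strand, CCAAT: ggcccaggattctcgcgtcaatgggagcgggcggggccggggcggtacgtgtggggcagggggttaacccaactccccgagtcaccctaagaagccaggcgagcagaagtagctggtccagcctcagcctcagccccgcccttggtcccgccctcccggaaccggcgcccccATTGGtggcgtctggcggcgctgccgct
Cks1b, chr3:89418292-89418491, minus strand, CHR and CCAAT: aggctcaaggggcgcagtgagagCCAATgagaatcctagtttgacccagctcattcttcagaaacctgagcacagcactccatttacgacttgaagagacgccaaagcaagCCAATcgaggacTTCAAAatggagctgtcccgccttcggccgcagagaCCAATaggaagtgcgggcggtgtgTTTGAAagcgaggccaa
Ccnb2, chr9:70421555-70421754, minus strand, CHR and CCAAT: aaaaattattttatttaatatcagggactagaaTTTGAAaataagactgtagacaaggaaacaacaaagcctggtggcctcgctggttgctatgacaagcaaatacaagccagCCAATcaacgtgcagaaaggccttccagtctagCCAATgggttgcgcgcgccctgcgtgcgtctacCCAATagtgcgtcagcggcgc
Cdk1, chr10:69352913-69353112, minus strand, E2F, CHR and CCAAT: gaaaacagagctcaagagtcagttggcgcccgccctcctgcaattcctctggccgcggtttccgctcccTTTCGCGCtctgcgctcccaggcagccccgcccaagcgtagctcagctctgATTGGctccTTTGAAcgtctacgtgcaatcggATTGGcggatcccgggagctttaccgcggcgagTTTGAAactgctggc
Cdc20, chr4:118437344-118437543, minus strand, CHR and CCAAT: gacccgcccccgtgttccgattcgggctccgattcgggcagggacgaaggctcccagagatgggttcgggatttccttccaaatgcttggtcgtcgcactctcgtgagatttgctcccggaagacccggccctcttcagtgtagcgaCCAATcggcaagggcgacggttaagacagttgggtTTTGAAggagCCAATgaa

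The Cks1b stretch held CHR matches that begin 77 and 17 bases before the start and CCAAT boxes at 177, 89 and 41 bases. Cdk1 had CHR matches at 71 and 15 bases, CCAAT boxes at 80 and 48 bases and an E2F match at 131 bases. Cdc20 had a CHR match at 18 bases and CCAAT boxes at 53 and 8 bases. CCAAT boxes upstream of a CHR are known from many late cell cycle genes. Ccnb2 held a CHR match at 167 bases and CCAAT boxes at 87, 54 and 21 bases. Cdc25b held 1 CCAAT box, at 28 bases. Further matches in the windows of Cks1b, Cdk1 and Ccnb2, among them the other of 2 CHR matches of Ccnb2, lie outside the printed bases. The window listed for E2f1 reads as coding sequence of its first exon and is not shown, though it is 1 of the 36, and the starts of the other windows were taken as listed. Over the module, 17 of 36 windows (47.2%) held a CHR match, 27 (75%) a CCAAT box and 5 (13.9%) an E2F match, against 17.9%, 37.4% and 2.26% of all 32851 windows of the same length. A match is a run of letters and says nothing here of binding. Cks1b, with a log2 fold change of -0.39, and Cdk1, with -0.06, both held CHR and CCAAT matches.

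E2f1, the E2F factor that drives S-phase genes, was the member with the largest fitted difference among the 39. It read 4.65, 5.15, 4.81, 4.08 and 5.12 in null tissue, against 6.03, 5.68, 5.19, 5.26 and 5.16 in wildtype tissue. The groups were parted by a small gap, since the highest null and the lowest wildtype array nearly met, and wildtype replicates 1 and 2 stood above the other 3. The means were 4.76 ± 0.44 in null and 5.46 ± 0.38 in wildtype tissue, a log2 difference of -0.70 ± 0.23 (SE; adjusted p = 0.271 by limma). Without wildtype replicates 1 and 2 it was -0.44. The signal lay close to the filter, where GCRMA values are compressed.

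The other pocket protein and E2F members gave no call. E2f5, a mainly repressive E2F factor, had 6.09 ± 0.08 in null and 6.25 ± 0.10 in wildtype tissue, a log2 fold change of -0.15 (interval -0.38 to 0.08). Rb1, the retinoblastoma protein, had 0.04 (interval -0.29 to 0.38), and Rbl1, its relative p107, had 0.07 (interval -0.18 to 0.33) with -0.06 on its dimmer probe set.

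The D-type cyclins, which link growth signals to entry into the cycle, had lower means in null tissue on 10 of their 11 probe sets over the filter. Of these 11, 7 read Ccnd2 and 3 read Ccnd1, and probe sets of 1 gene are not independent. Lower means stood in 56.9% of all probe sets. Ccnd3 read 6.33, 5.68, 6.33, 5.82 and 6.31 in null tissue, against 6.49, 6.51, 6.26, 6.65 and 6.34 in wildtype tissue. Null replicates 3, 5 and 8 lay above wildtype replicate 3 alone, while null replicates 4 and 7 lay below all wildtype arrays. The log2 fold change of Ccnd3 was -0.36 (SE 0.16, limma adjusted p = 0.385). Ccnd2 had 10.78 ± 0.19 in null and 11.08 ± 0.22 in wildtype tissue, a log2 fold change of -0.30 with an interval that reached 0.01. Ccnd1 had 9.34 ± 0.24 and 9.53 ± 0.39, a log2 fold change of -0.19 (interval -0.60 to 0.22).

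The further probe sets of Ccnd1 and Ccnd2 did not all give the value of the brightest. For Ccnd1 they gave log2 fold changes of -0.48 (limma adjusted p = 0.315) and -0.19. For Ccnd2 the 7 probe sets spanned -0.53 to 0.06. The set at -0.53 read 9.04, 8.24, 8.38, 8.04 and 8.28 in null tissue, against 9.15, 9.20, 8.55, 8.71 and 9.0 in wildtype tissue. Null replicate 3 lay among the wildtype arrays and the other 4 null arrays lay below them. The probe sets of Ccnd2 at 0.06 and -0.01 lay over 2 SE of the brightest probe set away from it, with the difference itself not tested.

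Cyclin E1 and cyclin E2, which start DNA synthesis with Cdk2, had fitted values of different size. Ccne1 read 6.74, 6.08, 5.39, 6.53 and 6.75 in null tissue, against 7.06, 6.87, 6.38, 7.35 and 7.04 in wildtype tissue. Null replicate 5 was the lowest and the groups overlapped through wildtype replicate 3. The log2 fold change was -0.64 (SE 0.26, limma adjusted p = 0.342), or -0.42 without null replicate 5, and -0.29 with the ratio of 3′ to 5′ actin probe signal, a measure of RNA integrity and labelling, in the fit. That ratio was 2.19 to 2.85 in null and 2.0 to 2.38 in wildtype arrays on the log2 scale, with its highest value in null replicate 5, and its part in the result was not tested. Ccne2 had 0.02 (interval -0.34 to 0.38). The difference between the 2 cyclins was not tested.

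The kinases partnered with these cyclins gave no call. Cdk4 had 10.96 ± 0.14 in null and 10.98 ± 0.15 in wildtype tissue, and its 3 probe sets gave log2 fold changes of -0.04 to -0.01. Cdk2 read 7.07, 6.90, 7.01, 6.76 and 5.58 in null tissue, against 6.10, 6.32, 6.59, 5.99 and 6.14 in wildtype tissue. Null replicates 3, 4, 5 and 7 lay above every wildtype array and null replicate 8 lay below them all. The log2 fold change of Cdk2 was 0.43 (SE 0.25, limma adjusted p = 0.529), 0.70 without null replicate 8, and 0.10 with the actin ratio in the fit.

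Cdkn1b, which encodes the kinase inhibitor p27 and marks cells leaving the cycle, had higher means in null tissue on both of its probe sets. The brighter read 7.74, 8.07, 8.21, 7.65 and 8.06 in null tissue, against 7.55, 7.56, 7.30, 8.16 and 6.94 in wildtype tissue. All null arrays lay above 4 of the 5 wildtype arrays, and wildtype replicate 4 lay within the null range. The log2 fold change was 0.45 (SE 0.20, limma adjusted p = 0.400) and that of the other probe set was 0.74 (SE 0.36, limma adjusted p = 0.425). On that other set wildtype replicate 5 read 5.85, against 7.33 to 7.99 on the other wildtype arrays and 7.48 to 8.57 on the null arrays.

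Markers of postmitotic neurons, cells that express p27, were set beside Cdkn1b and the cyclins. Of 10 listed, 9 were over the filter and Mapt was not. Of these, 7 had higher and 2 lower means in null tissue, with a median log2 fold change of 0.16, and wildtype replicate 4 was the lowest array of the list. Without that array, an alternative chosen after seeing the data, the median was 0.01, with 6 higher and 3 lower means. With all arrays 1 higher gene, Snap25, stood at an unadjusted limma p of 0.05, or 11.1% of those tested against 3.84% of all genes. Dcx, a microtubule protein of young neurons, had 0.66, Nefl, a neurofilament subunit, 0.48 and Snap25, a synaptic protein, 0.46. Gap43 had 0.25, Stmn2 0.16, Isl1 0.12 and Elavl3 0.10, while Tubb3 had -0.04 and Nefm -0.26. The summed linear signal of the list was 4378 to 6233 in null and 3273 to 6184 in wildtype arrays. Of the hindbrain and neural tube list, 4 of 5 genes had lower means, among them Pax6 at -0.52 (limma adjusted p = 0.222), and Hoxb3 had 0.22. Pax6 was the 1 gene of that list at an unadjusted limma p of 0.05, or 20% lower against 8.98% of all genes. Of 5 arch mesenchyme and neural crest genes over the filter, 2 had lower and 3 higher means, with a median of 0.03. Of the erythroid list Hbb-bh1 and Hba-x had higher means while Hba-a1, Alas2 and Klf1 were under the filter. The erythroid median was 0.40, and 0.10 without wildtype replicate 4, the lowest array there too. Whether the share of neurons, progenitors or blood has a part in the values of the module was not tested.

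**Figure D2:**
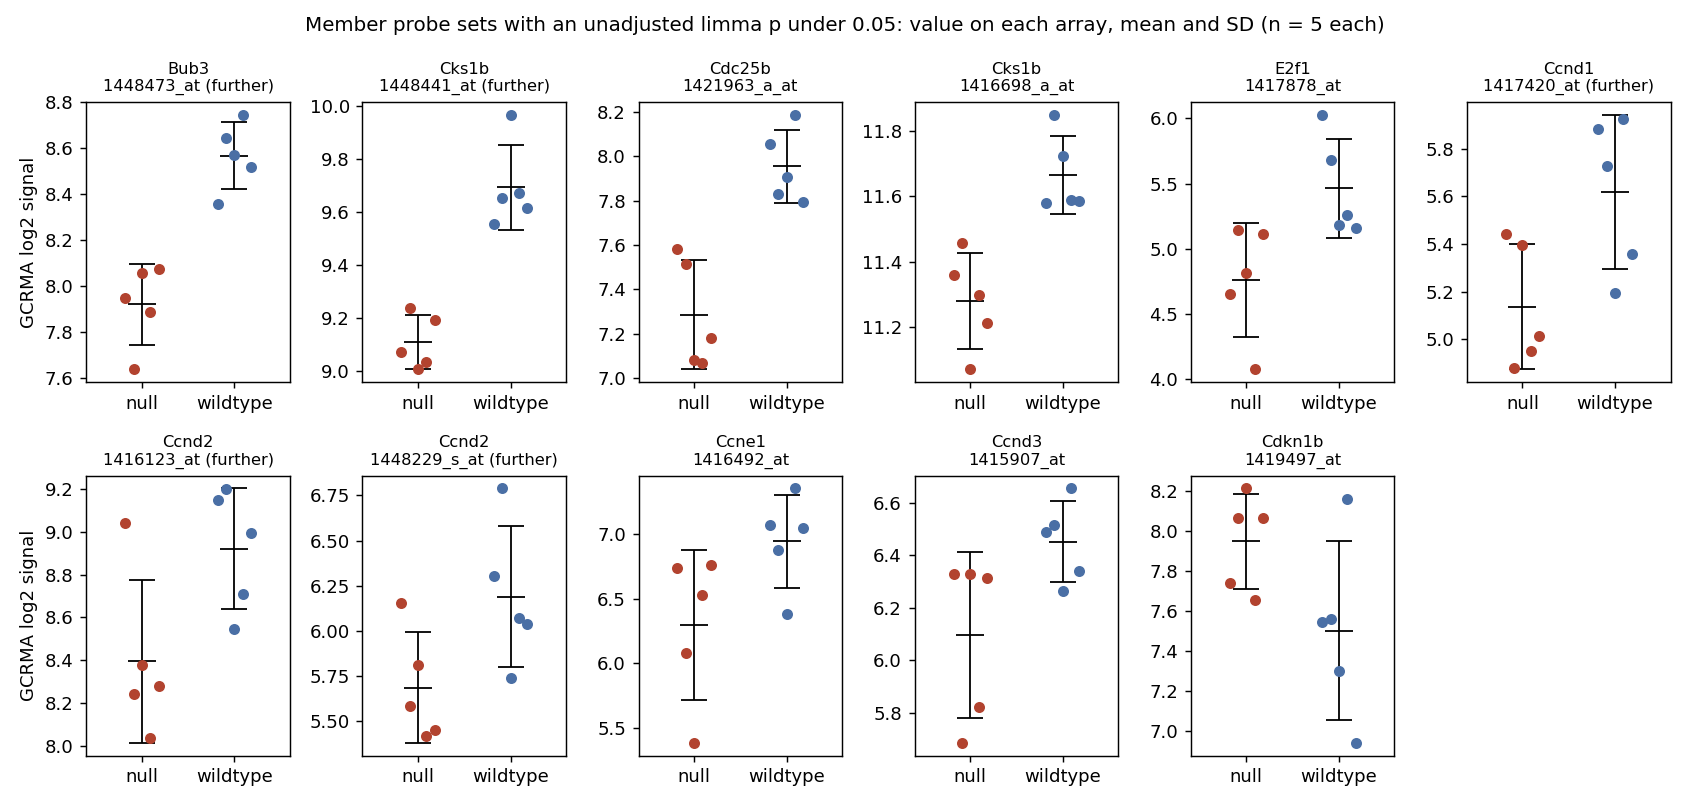
GCRMA log2 signal (y axis, its own range in each panel) on each of 5 Fbln1-null and 5 wildtype arrays for the 11 member probe sets with an unadjusted limma p under 0.05, with the mean and SD as bars. In the panels of Bub3, Cks1b (both probe sets), Cdc25b and E2f1 no null point reaches the wildtype points.

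The mitotic kinases and the passenger complex had no member at an unadjusted limma p of 0.05. Aurka, the kinase of spindle poles, read 5.16, 5.77, 5.83, 5.68 and 5.65 in null tissue, against 5.73, 5.88, 5.86, 5.91 and 5.89 in wildtype tissue, a log2 difference of -0.23 ± 0.14 (SE; adjusted p = 0.529 by limma). The 2 groups overlapped at wildtype replicate 1, and null replicate 3 stood well below the rest. Without it the value was -0.12. Aurkb, the kinase of the chromosomal passenger complex, had -0.36 (interval -0.95 to 0.23) on its brightest probe set, which spread from 5.6 to 7.3 over the null arrays, and 0.04 on the dimmer. Birc5, the passenger protein survivin, had 10.84 ± 0.11 in null and 10.83 ± 0.17 in wildtype tissue, a log2 fold change of 0.01 (interval -0.25 to 0.27). Plk1, the polo-like kinase of mitotic entry and exit, and Nek2, a centrosome kinase, lay close to the filter, with -0.21 and 0.01.

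Among the genes of the spindle checkpoint, which delays anaphase, the brightest probe sets gave no member at an unadjusted limma p of 0.05. Bub1, a kinetochore kinase, read 8.53, 8.84, 8.36, 9.06 and 8.73 in null tissue, against 8.85, 8.92, 8.98, 8.96 and 9.15 in wildtype tissue. Null replicates 3, 4, 5 and 8 lay below all wildtype arrays and null replicate 7 did not (log2 fold change -0.27, SE 0.14, limma adjusted p = 0.481). With the actin ratio in the fit the Bub1 value was -0.12. Bub1b, its relative BubR1, had 0.32 (interval -0.20 to 0.83), Mad2l1, which binds Cdc20 to restrain it, -0.05 (interval -0.46 to 0.36) and the checkpoint kinase Ttk -0.01 (interval -0.49 to 0.46). Cdc20, the activator of the anaphase promoting complex that the checkpoint inhibits, had 0.14 on its brightest and -0.26 on its dimmer probe set.

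Bub3, the partner that brings Bub1 and BubR1 to kinetochores, was read differently by its 3 probe sets over the filter. The brightest, of a type that can match more than 1 transcript family, gave -0.22 on the log2 scale (SE 0.14, limma adjusted p = 0.550). The second read 7.95, 7.64, 8.06, 7.89 and 8.07 in null tissue, against 8.36, 8.65, 8.57, 8.75 and 8.52 in wildtype tissue. These groups did not overlap, and the log2 fold change was -0.65 (SE 0.13, limma adjusted p = 0.0781), the smallest p of any member probe set. The dimmest, of the same type as the brightest, had 0.36 (SE 0.21). The second and the dimmest each lay over 2 SE of the brightest away from it, in opposite directions.

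Kinesins, centromere proteins and chromosome proteins of mitosis gave no call. Cenpe, the kinesin that carries chromosomes to the spindle equator, had the smallest p of these 7 genes. It read 7.83, 8.51, 7.95, 8.34 and 8.35 in null tissue, against 8.10, 8.49, 8.77, 8.86 and 8.53 in wildtype tissue, a log2 difference of -0.35 ± 0.18 (SE; adjusted p = 0.441 by limma). The groups overlapped through wildtype replicates 1 and 2, and with the actin ratio in the fit the value was -0.13. Mki67, the proliferation antigen that coats mitotic chromosomes, had 10.36 ± 0.08 in null and 10.25 ± 0.11 in wildtype tissue, a log2 fold change of 0.11 (interval -0.13 to 0.34). Top2a, which untangles sister chromatids, had 11.08 ± 0.28 and 11.19 ± 0.04, a log2 fold change of -0.12 (interval -0.42 to 0.18). The kinesins Kif11 and Kif23, of spindle bipolarity and cytokinesis, had -0.01 and 0.04, the centromeric histone Cenpa -0.17 and the kinetochore protein Cenpf 0.10.

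Across all their probe sets over the filter, 62 in number, the members had 10 lower and 1 higher at an unadjusted limma p of 0.05, where 8.56% and 3.84% of all probe sets stood. At an adjusted p of 0.05 stood 0 of them, against 0.0204% of all probe sets. Those of Cdc25b, Cks1b and Bub3, 3 in number, were lower at an adjusted p of 0.1, where 0.388% of all probe sets were, and 5 had every null array below every wildtype array, against 1.95%. Probe sets of 1 gene share their target and are not independent. Of the 23 further probe sets, which belonged to 14 genes, 13 had the sign of the brightest and 10 did not, and 4 lay over 2 SE of the brightest away from it. Those with the other sign included the sets of Wee1, Cks2, Aurkb, Cdc20, Rbl1, Kif11 and Kif23, whose brightest probe sets were all at an unadjusted limma p above 0.05.

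**Figure D3:**
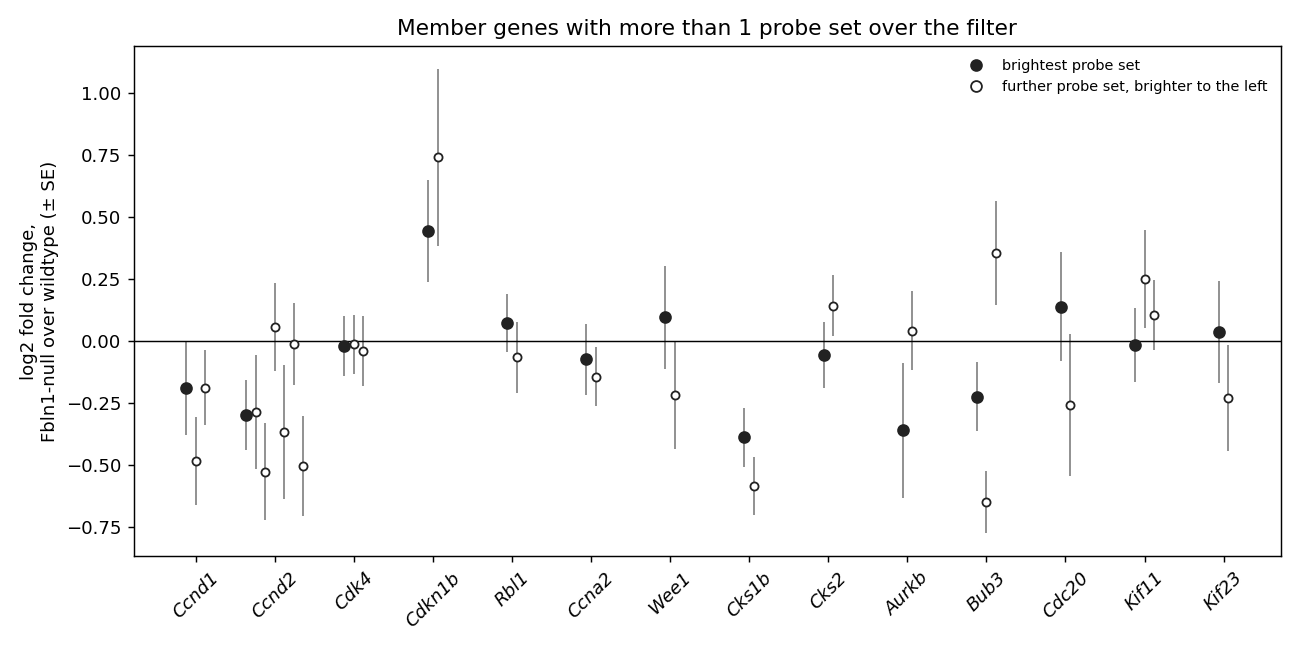
Log2 fold change of Fbln1-null over wildtype tissue with its SE (y axis) for every probe set over the filter of the 14 member genes with more than 1, the brightest filled and the others open. Both probe sets of Cks1b lie below 0 and both of Cdkn1b above it, while those of Bub3 run from -0.65 to 0.36.

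The level of the module on each array was the mean over its 39 genes of each gene's deviation from its own mean over the 10 arrays. It was -0.02, -0.02, -0.14, -0.07 and -0.02 in null tissue, against 0.03, 0.11, -0.02, 0.11 and 0.03 in wildtype tissue. Null replicate 5 was the lowest and wildtype replicate 3 lay among the null arrays. The means were -0.05 ± 0.05 in null and 0.05 ± 0.06 in wildtype tissue (SD, n = 5 each). For the 9 mitotic entry genes, which hold Cdc25b and Cks1b, the groups narrowly did not overlap, at -0.19 to -0.02 in null and -0.02 to 0.20 in wildtype arrays. Cdc25b and Cks1b each parted the genotypes by themselves, so this gap is not a separate result. The level of the list without them was not computed. The groups overlapped for the other 5 roles. The differences of the means were -0.18 for the E2F and retinoblastoma factors, -0.16 for the mitotic kinases and passenger complex, -0.08 for the G1 and S phase genes, -0.06 for the kinesin and centromere group and -0.02 for the spindle checkpoint.

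**Figure D4:**
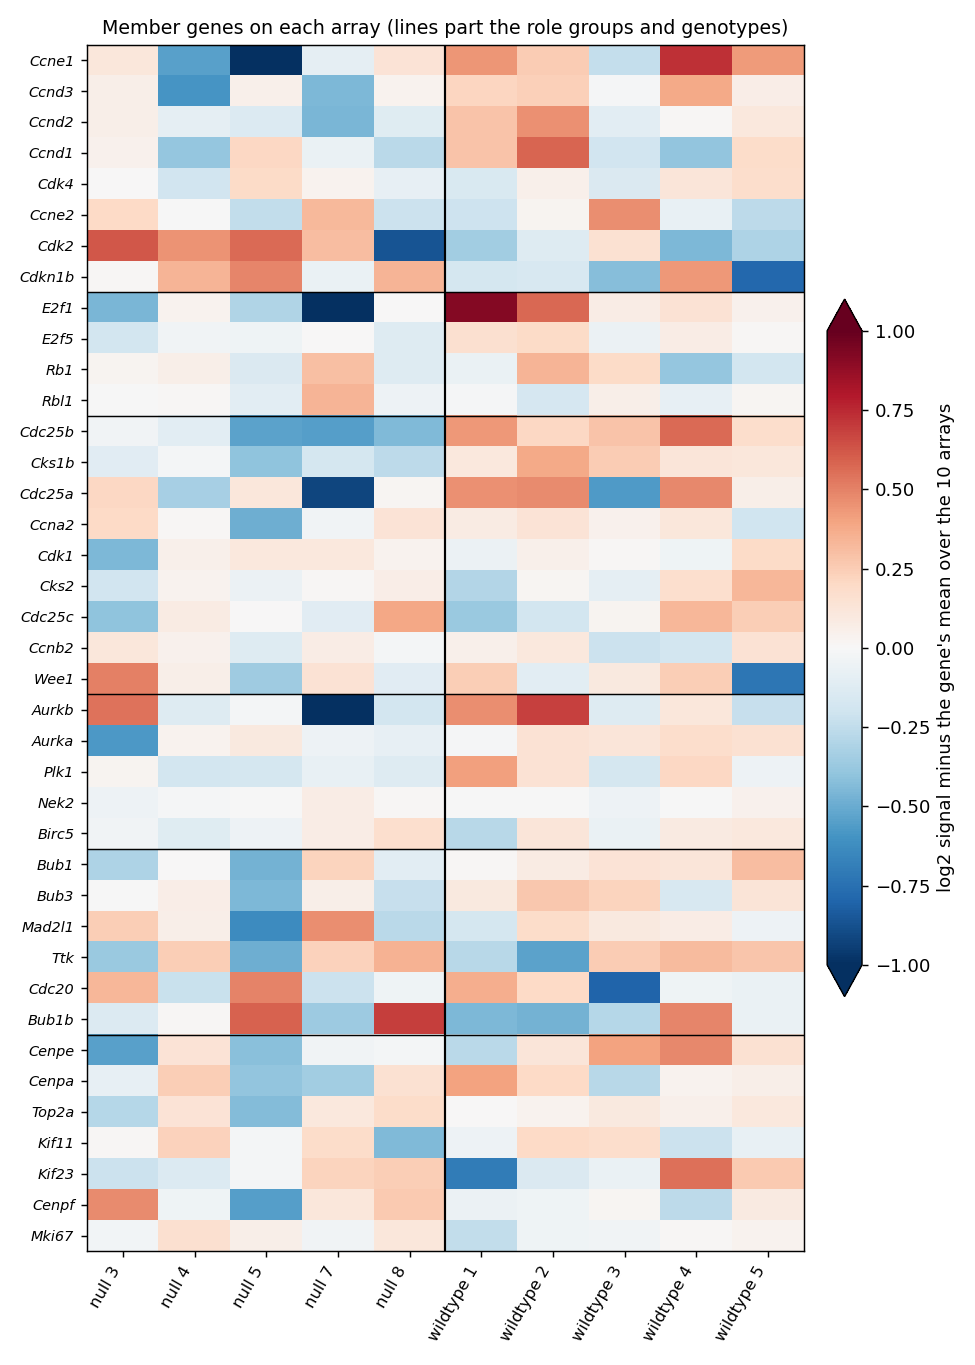
Deviation of each of the 39 member genes (rows, by role group) from its mean over the 10 arrays in log2 units (colour), on each Fbln1-null and wildtype array (columns). The rows of Cdc25b and Cks1b are at or below 0 in all null columns and above 0 in all wildtype columns, and most mitotic rows show no split by genotype.

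Other genes of the cell cycle were read from 6 lists of 130 genes, 104 of them on the array and 90 over the filter. Among these, 0 passed an adjusted limma p of 0.05, and 3 lower and 4 higher (3.33% and 4.44%) stood at an unadjusted p of 0.05, against 8.98% and 3.84% of all genes. The median log2 fold change was -0.01, with 52 lower and 38 higher means.

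The partners of the E2F and pocket proteins held the largest of these values. Lin9 is a core subunit of the MuvB complex, which binds either these proteins or B-Myb at cell cycle genes. Lin9 read 7.49, 6.86, 6.66, 7.71 and 6.61 in null tissue, against 6.14, 6.37, 6.80, 5.91 and 5.92 in wildtype tissue. The groups overlapped only through wildtype replicate 3, and the log2 fold change was 0.84 (SE 0.24, limma adjusted p = 0.219). It was the 1 gene of 7 in its list at an unadjusted limma p of 0.05, and E2f6, a repressive E2F factor, had -0.28. E2f4, Rbl2 and Mybl2 of the same list were under the filter.

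Kinetochore and spindle genes outside the module went both ways. Cenpt, which links the centromere to the outer kinetochore, gave 0.61 on the log2 scale (SE 0.17, limma adjusted p = 0.199), while Cenpk and Cenpo, of the inner kinetochore network, had -0.41 and -0.39. All null arrays lay below the wildtype arrays for Cenpo. Of 17 kinetochore genes over the filter 10 had lower means, with a median of -0.15. Dlgap5, a protein of the spindle and target of Aurka, read 5.67, 5.76, 5.84, 5.94 and 6.30 in null tissue, against 5.39, 5.49, 5.32, 5.60 and 5.31 in wildtype tissue, without overlap (log2 fold change 0.48, SE 0.14, limma adjusted p = 0.203). Ckap5, a microtubule polymerase, had 0.43, and the 27 spindle and cytokinesis genes had a median of -0.02.

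The remaining lists gave 1 gene at an unadjusted limma p of 0.05, Anapc11. In the anaphase promoting complex and SCF ligases, 7 of 16 genes had lower means (median 0.04), with Anapc11, the RING subunit, at -0.36 and Cdc23, a scaffold subunit, at 0.59. In cohesin and condensin, 8 of 15 had lower means (median -0.01), with Smc3, a cohesin subunit, at 0.33 and Ncapg2, a condensin subunit, at 0.24. The last list mixed the remaining inhibitors, the CDK-activating kinase, Cdk5 and the cyclins Ccnf, Ccng1 and Ccng2. Of it 7 of 8 genes had lower means (median -0.13), with Cdk7, the activating kinase, at -0.37 and Ccnf, an F-box cyclin, at -0.35. The inhibitors Cdkn1a, Cdkn2a, Cdkn2b, Cdkn2c and Cdkn2d were under the filter, and Cdkn1c, which encodes p57, had -0.04.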

How the data were processed

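RNA of each embryo was labelled with a 3′ IVT kit and read on 1 of 10 Affymetrix arrays, per the labels' protocols. The authors deposited log2 values, made with GCRMA according to the submitters' processing notes; its version is not given in the sources used here. GCRMA compresses the fold changes of dim probe sets. Of 22690 probe sets 64 were controls, and of the other 22626, 20380 had 1 platform symbol and were named, 691 had several and 1555 had none.

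Probe sets over log2 4 on at least 5 arrays, 9801 for 5910 genes, were fitted with limma 3.58.1 (R 4.3.3; lmFit and eBayes, genotype alone, two-sided), with Benjamini-Hochberg adjustment over all 9801 at 0.05. Fbln1, under the filter, was compared by exact permutation over 252 assignments. The fit was tested on simulated data with the spread of these arrays. At an adjusted limma p of 0.05 it recovered 19.4% of changes of 0.5 log2 and 76.4% of changes of 1 log2.

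Members, lists and tests were chosen with earlier results of these data known. Values per array were given for members at an unadjusted p under 0.05, with groups apart or with the smallest p of a role group, and the 2 smallest p of each wider list were named. Cdk2, Cenpo, Cdkn1c, the second probe set of Ccnd2 and the arrays of Lin9 and Dlgap5 were picked after their values were seen. Of the brightest probe sets, 3 are of the _s_at and 2 of the _x_at type, which can match several genes. Alternatives were quantile scaling, other filters, a floor, a trended variance, array weights, averaged probe sets, a replicate block, embryo sex, the actin ratio and arrays left out.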

Additional observations from a re-analysis of the deposited data

Results flagged for a closer look

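In 7 of 80 sets of 5 arrays, 1 for each genotype of the 39 members and Fbln1, 1 array stood apart from the other 4 by Dixon's ratio, its gap to the nearest array over the whole range. Chance gives about 1 in 20. Null replicate 8 was low for Cdk2, at 5.58 against 6.76 to 7.07 on the other null arrays (ratio 0.790). Null replicate 3 was low for Cdk1, at 8.78 against 9.26 to 9.33 (ratio 0.877), and for Aurka, at 5.16 against 5.65 to 5.83 (ratio 0.731). Null replicate 7 was high for Rbl1, at 7.21 against 6.77 to 6.88 (ratio 0.744). Wildtype replicate 1 was low for Aurka, at 5.73 against 5.86 to 5.91 (ratio 0.723), and for Mki67, at 10.06 against 10.27 to 10.34 (ratio 0.723). Wildtype replicate 5 was low for Ccna2, at 10.31 against 10.55 to 10.65 (ratio 0.723).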

How the results depend on the processing

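With all 21 alternatives, 0 member genes passed an adjusted limma p of 0.05. The count of members at an unadjusted p of 0.05 was 6, and 4 to 8 with 1 array left out, 4 with the replicate block or the sex covariate and 3 without wildtype replicates 1 and 2. The share of all probe sets at that p was 12.4%, and 9.43% to 12.96% with 1 array left out (12.96% where 8 members stood), 13.4% with the block, 10.9% with sex and 11.4% without wildtype replicates 1 and 2. Embryo sex was inferred from the arrays, as female where Xist signal lay above that of the Y-linked genes Eif2s3y and Kdm5d. Only wildtype replicate 4 read as female, so the sex covariate amounts to leaving it out. Members whose groups did not overlap numbered 3, 2 with quantile scaling or the log2 6 filter, and 3 to 6 with 1 array left out. They numbered 6 without wildtype replicate 3 and 5 without wildtype replicate 4 or without wildtype replicates 1 and 2. Lower in null tissue were 4 of the 5 without wildtype replicate 4, 3 of the 4 without null replicate 8, and all of them elsewhere. The share over all probe sets was not counted under the alternatives, and fewer arrays overlap less often by construction. Over all probe sets the count at an adjusted p of 0.05 was 2, against 34 with the log2 6 filter or array weights, 12 with averaged probe sets, 8 with a trended variance, 1 without a filter and 0 with the replicate block, the sex covariate, the actin ratio or without wildtype replicates 1 and 2, and 0 to 7 with 1 array left out. Lower means numbered 25 of 39, 21 with quantile scaling, which moved the median of all probe sets to 0.01, and 20 with the actin ratio. They numbered 22 to 30 and the median log2 fold change was -0.10 to -0.02 with 1 array left out. Of the 39 members, 17 kept their sign under every alternative run, among them Cdc25b, Cks1b, E2f1, Ccne1, Ccnd2, Ccnd3 and Cdkn1b. Cdc25b stayed at an unadjusted p under 0.05 in all 21, with log2 fold changes of -0.74 to -0.57, and Cks1b in 20, the exception being the replicate block. The adjusted limma p of Cdc25b ran from 0.0615 to 0.287. Alternatives that put it above 0.1 included quantile scaling (0.122), no filter (0.210) and the replicate block (0.287). The block gave -0.33 for E2f1, -0.06 for Ccnd2, 0.75 for Cdk2, -0.45 for Bub1 and -0.62 for Cenpe; Ccnd1 (0.09) and Aurkb (0.21) changed sign with it. The second probe sets of Bub3 and Cks1b passed with a log2 6 filter (adjusted p = 0.0431 and 0.0439), and that of Bub3 with array weights (adjusted p = 0.0388). Same-numbered arrays of the 2 genotypes correlated at -0.19, -0.34 and 0.16 in their deviations, so the numbers were not taken as pairs. The cause of these changes was not tested. Signals near the filter, as for E2f1, Plk1 and Nek2, limit what could be seen there.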
